A study of Equus caballus with 13 samples.

Results

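The proteasome genes described here are the rows of both RNA kinetics tables whose gene symbol begins with PSM, a letter from A to G and a number. This name pattern matched 43 genes, all listed in both tables, among 11056 genes in the table of old against young cells (the age table) and 11249 in that of young male against young female cells (the sex table). Of these, 41 were classed here as genes of subunits, regulators or assembly factors of the proteasome. The other 2, PSMC3IP and PSME3IP1, are named as interacting proteins of PSMC3 and PSME3 and were not classed as proteasome genes. They are counted with the members and named where they matter.

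The proteasome is the large protease that degrades proteins tagged with ubiquitin. Its core particle (20S) is a barrel of alpha rings, which gate the entrance, around beta rings, which hold the proteolytic sites. The regulatory particle (19S) has a base, with the ATPases that unfold substrates, and a lid, which removes ubiquitin. Interferons replace the 3 catalytic beta subunits PSMB5, PSMB6 and PSMB7 with PSMB8, PSMB9 and PSMB10 to form the immunoproteasome, which makes peptides for MHC class I presentation. In cartilage, where chondrocytes live long and synthesise much matrix, the proteasome is part of protein quality control and of the turnover of signalling proteins.

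Primary chondrocytes, the resident cells of cartilage, came from wild-type (WT) horses: 5 samples were old female, 5 young female and 3 young male, with no ages in years. All groups were cultured for 2 days and given 4-thiouridine (4sU), a uridine analogue that marks newly made RNA, for 4 h before extraction. The tables list for each gene and group 1 synthesis rate and 1 half-life estimated by the authors, with no value per sample, so the depth of each sample is unknown, no value has a replicate error, and no difference below has a test. The labels do not say whether each sample was a single animal. Half-lives were read as hours and synthesis rates are in the authors' unstated unit; since it was not stated whether rates are per transcript length, values of single genes are compared between groups for the same gene. The exceptions are a ranking of all genes by synthesis rate, used to set apart low rates, and sums of implied levels over marker lists, in which length may play a part. The implied level, in arbitrary units, is the product of rate and half-life over ln 2, and assumes that RNA amounts were steady during labelling; adding the log2 ratios of rate and half-life gives its own. A member was counted as past the threshold at a difference of at least 2-fold (log2 ratio of 1).

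All 8 chondrocyte markers, among them SOX9, COL2A1 and ACAN, were listed in both tables. Of 11 leukocyte markers 2 were listed (CORO1A and CD14), with PTPRC, CD53 and CSF1R among those without a row, as were 2 of 6 endothelial and 6 of 7 fibroblast and synovial lining markers. In old cells 5 of 6 fibroblast and synovial lining markers had lower implied levels than in young female cells, with a median log2 ratio of −1.06 and COL1A1 at −2.86, while the ratio of their summed level was 0.51, with DCN (1.35) the one marker above 0. In young male cells 5 of 6 were higher, with a median of 1.38 and a summed ratio of 1.22. Of the chondrocyte markers 6 of 8 were lower in old cells, with a median of −0.48 and a summed ratio of −0.15, where COMP was at 0.83. In male cells 7 of 8 were higher, with a median of 1.27 and a summed ratio of 1.31. Of all genes 49.3% were lower in old cells and 50.5% higher in male cells. Of genes with a half-life of 12 h or more in old female cells, 89.6% were higher in male cells, with a median of 0.38. All chondrocyte markers but SOX9, and the listed fibroblast and synovial lining markers other than PDPN and COL3A1, had such half-lives. The part of the marker differences in the proteasome values was not tested. In bulk samples fewer cells of a type and less RNA per cell cannot be told apart. Of the 13 samples only 2, a young female and a young male, shared 1 of 12 batch labels, so batch and group cannot be told apart.

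The young female libraries were estimated in both tables, which gives the only measure at hand of estimation error, and a partial one. Half-lives of 40 of the 43 members differed by at most 0.02 log2 units between the tables (median absolute difference 0.0022), as did 8020 of the 10974 genes in both tables (median 0.0037). The exceptions were PSME1 (36.8 and 39.8 h), PSMG1 (7.06 and 7.43 h) and PSMG3 (6.07 and 6.17 h). This repeat uses the same libraries and holds none of the variation between animals, and none of that from labelling or sequencing. The error of a half-life may therefore be larger than these differences.

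Proteasome mRNAs covered a wide range of stability. In young female cells of the age table their half-lives had a median of 8.39 h (interquartile range 4.61 to 13.0), beside 3.64 h for all genes, and 37 of 43 lay above that median of all genes. They ran from 1.59 h for PSMD12, a lid subunit, to 36.8 h for PSME1, a subunit of the interferon-inducible activator PA28, a 23.1-fold range. A half-life of 1 to 24 h, a range chosen here around the 4 h of labelling, was listed for 41 of 43 members in young female, 42 in old and 39 in young male cells, and none was at the ceiling of 69.3 h at which the authors' values stop. The order was similar between groups from different libraries: half-lives of old female and young male cells had a Spearman correlation of 0.95 over the 43 members, beside 0.97 over 10974 genes in both tables.

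**Figure D1:**
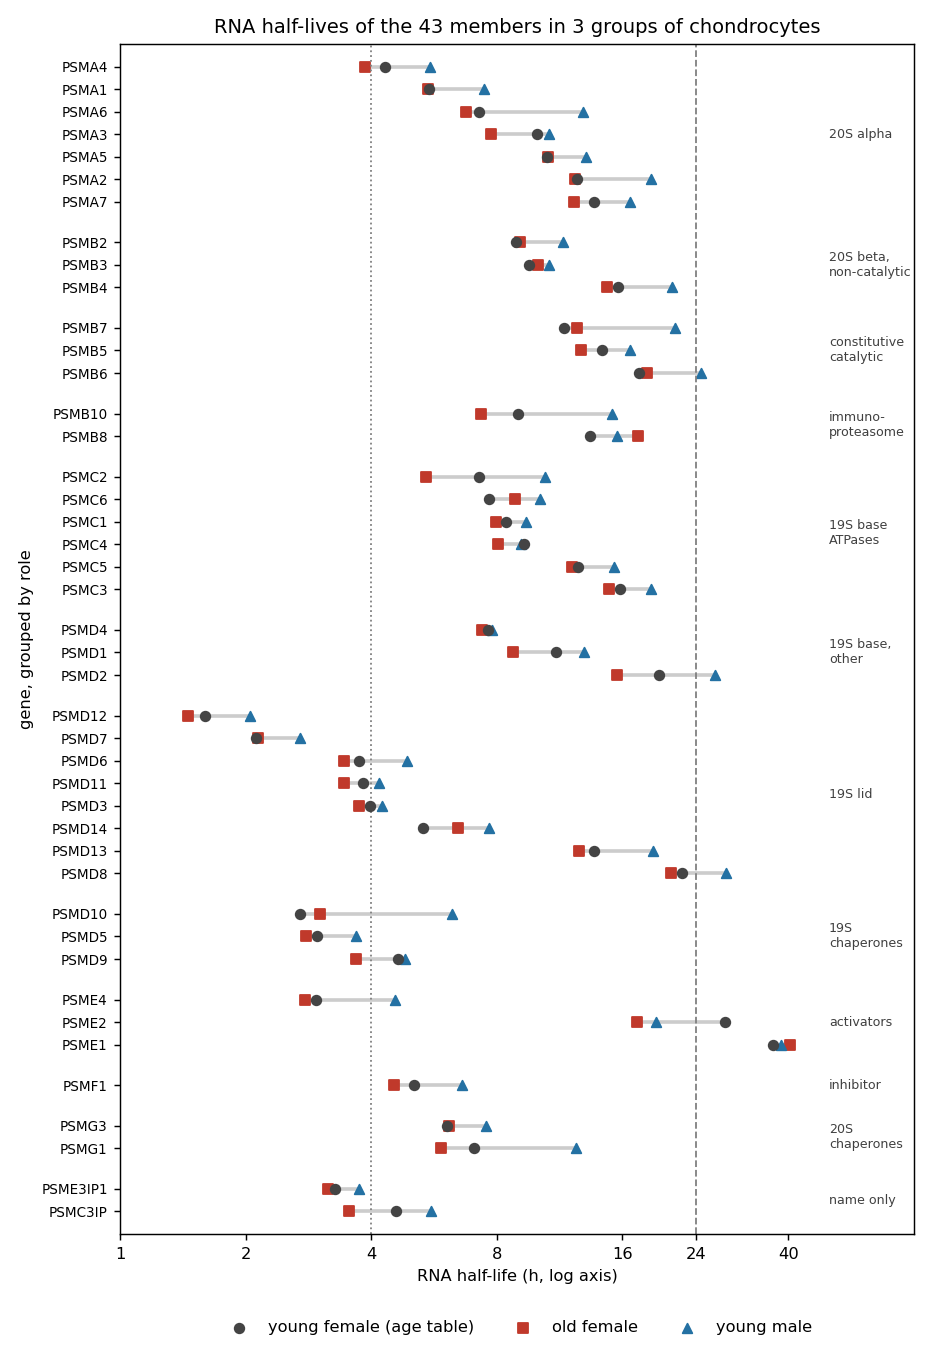
RNA half-life in hours (log axis) of each of the 43 members, grouped by role, in young female (circles, age table), old female (squares) and young male cells (triangles), 1 authors' value per group. The dotted line marks the 4 h of labelling and the dashed line 24 h; lid subunits spread from 1.59 to 22.2 h in young female cells, and triangles lie to the right of the circles for most members.

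The alpha subunits of the core ranged over 3.17-fold in young female cells, from 4.32 h for PSMA4 to 13.7 h for PSMA7. In old cells PSMA4 had a half-life of 3.86 h and PSMA7 one of 12.3 h, and in young male cells they had 5.52 and 16.7 h. Non-catalytic beta subunits lay between 8.90 h (PSMB2) and 15.6 h (PSMB4) in young female cells; PSMB2 had 9.09 h in old and 11.5 h in male cells, and PSMB4 14.7 and 21.1 h. The core subunits, alpha and beta, that were listed therefore all had half-lives above 4 h in young female cells.

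Base ATPases, which form the unfolding ring, ranged from 7.26 h for PSMC2 to 15.7 h for PSMC3 in young female cells. PSMC2 remained the shorter-lived of this pair in old (5.42 and 14.9 h) and in male cells (10.5 and 18.8 h). Of the other base subunits, PSMD4, a ubiquitin receptor, had 7.60 h, PSMD1 11.1 h and PSMD2 19.6 h; PSMD1 and PSMD2 are the large scaffold proteins of the base. PSMD4 differed little between groups, at 7.36 h in old and 7.80 h in male cells, while PSMD2 was at 15.5 and 26.7 h.

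Lid subunits, which occur once each in the assembled particle, had mRNAs of very different stability, with a 14.0-fold range in young female cells. PSMD12 had a half-life of 1.59 h in young female, 1.45 h in old and 2.04 h in young male cells. PSMD7, the partner of the deubiquitinase PSMD14, had 2.12, 2.14 and 2.70 h. PSMD8 had 22.2, 20.9 and 28.4 h. In each of the 3 groups PSMD12 and PSMD7 were thus the shortest-lived of the 8 lid members and PSMD8 the longest-lived. SEM1, a small lid subunit outside the name pattern, had 14.6, 17.3 and 29.4 h. PSMD6, PSMD11 and PSMD3 lay close together, at 3.73, 3.83 and 3.96 h in young female cells, PSMD14 was at 5.31 h and PSMD13 at 13.7 h.

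The base chaperones of the name pattern, PSMD10, PSMD5 and PSMD9, had half-lives of 2.69, 2.95 and 4.63 h in young female cells. These lay below the members' median of 8.39 h, with PSMD9 above the median of all genes (3.64 h). PAAF1, a base chaperone outside the name pattern, had 6.03 h in young female, 5.29 h in old and 10.8 h in male cells. The core chaperones PSMG3 and PSMG1 had 6.07 and 7.06 h in young female cells. In old cells PSMD9 was at 3.68 h, PSMG3 at 6.14 h and PSMG1 at 5.86 h, and in male cells these were at 4.82, 7.54 and 12.4 h. PSMF1, an inhibitor of the core particle, had 5.07 h in young female, 4.53 h in old and 6.60 h in male cells. The activators differed 12.5-fold among themselves: PSME4, which encodes the nuclear activator PA200, had 2.95 h, while the PA28 subunits PSME2 and PSME1 had 28.3 and 36.8 h, above 24 h. PSMC3IP and PSME3IP1, not classed as proteasome genes, had 4.59 and 3.28 h. PSMA8, PSMB1, PSMB9, PSMB11, PSME3, PSMG2 and PSMG4 were not listed and are not analysed here.

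The first comparison asked how age changed the kinetics of these RNAs in female cells. No member was past the 2-fold threshold in old cells, for half-life (3.53% of all genes past it), synthesis rate (7.52%) or implied level (4.12%). Implied levels of old cells had a median log2 ratio of −0.13 (0.913-fold) to young female cells, beside 0.00 over all genes, and 32 of 43 members were below 0 beside 49.3% of all genes. Half-lives had a median log2 ratio of −0.09 with 31 of 43 shorter, close to all genes (−0.08, 63.1% shorter). Synthesis rates had a median of −0.03 with 27 of 43 lower, beside 0.08 and 39.8% lower over all genes. After centring on the median of all genes 24 of 43 members were shorter in half-life and 33 lower in synthesis rate. Centring within deciles of half-life left 23 shorter and 33 lower. With a lower threshold of 0.5 there was 1 member past it for half-life (PSME2, beside 13.4% of all genes), 2 for synthesis rate (PSMB8 and PSME2, beside 23%) and 1 for level (PSMD5, beside 15.6%). All these shares of members were under the share of all genes.

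By role, level ratios below 0 in old cells were found over most of the particle. The lid was lower for 8 of 8 members, between −0.32 for PSMD11 and −0.02 for PSMD13, while SEM1, the lid subunit outside the name pattern, was at 0.00. Alpha subunits were lower for 6 of 7, with PSMA1 at −0.49 (1.41-fold lower) and PSMA2 at 0.02. Base ATPases were lower for 5 of 6 (4 of 6 after centring within deciles of half-life), with PSMC2 at −0.39 and PSMC4 at 0.01, and the other base subunits for 3 of 3, from −0.36 for PSMD1 to −0.06 for PSMD4. The 3 listed non-catalytic beta subunits were below 0, from −0.26 for PSMB3 to −0.07 for PSMB2, while of the constitutive catalytic subunits PSMB7 was at −0.23 and PSMB5 and PSMB6 at 0.02 and 0.03.

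The lowest level ratio in old cells was that of PSMD5, a chaperone of base assembly, at −0.57 (1.49-fold lower). Its synthesis rate was 2951 in young female and 2104 in old cells, a log2 ratio of −0.49, and its half-life 2.95 and 2.79 h. PSMA1, next in order, had a synthesis rate of 476.0 in young female and 338.7 in old cells and half-lives of 5.49 and 5.48 h. For both genes the difference thus lay in the synthesis rate. PSMC2 and PSMD1 showed the other combination: the half-life of PSMC2 was 7.26 h in young female and 5.42 h in old cells, with synthesis rates of 444.2 and 453.8, and that of PSMD1 was 11.1 and 8.73 h, with synthesis rates of 957.7 and 948.7. Above 0 in level were 11 members, of which PSME3IP1 (0.13) and PSMC3IP (0.11), not classed as proteasome genes, had the highest ratios. Without PSME3IP1 and PSMC3IP, 9 of 41 were above 0 and the median was −0.16.

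**Figure D2:**
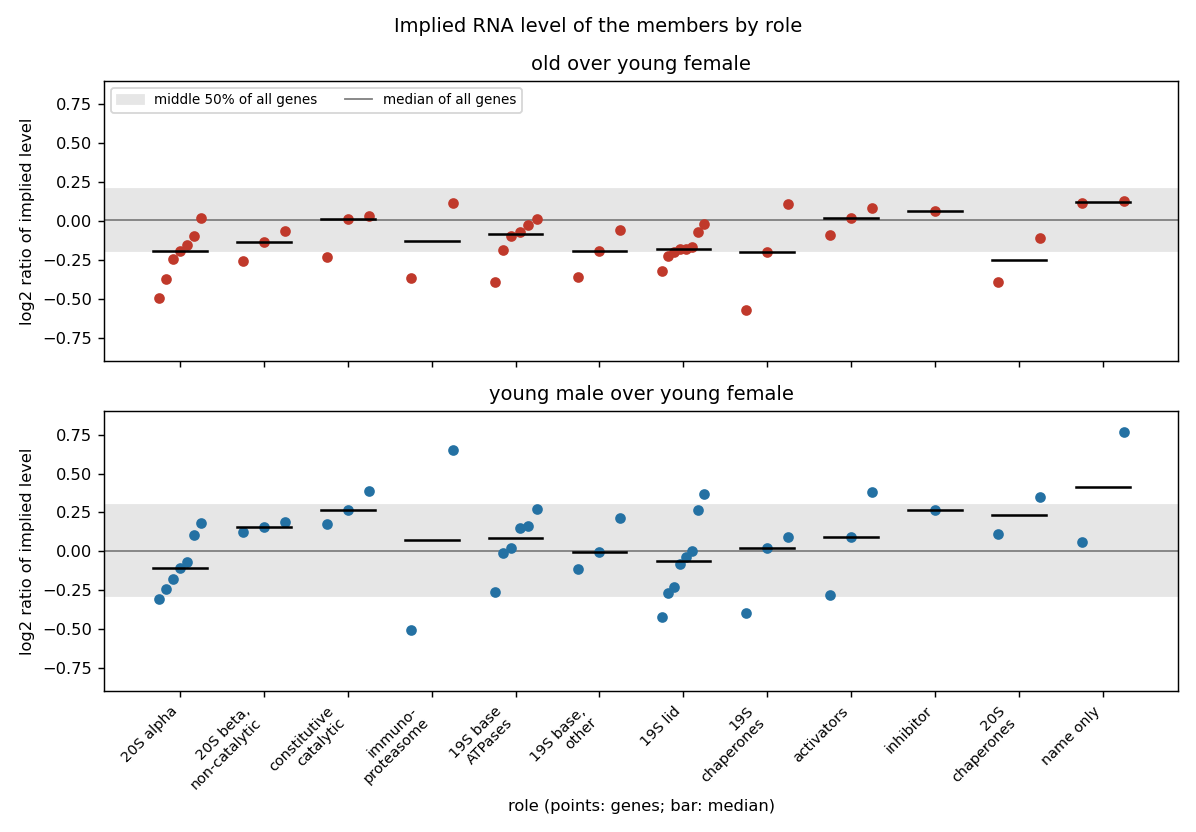
Log2 ratio of the implied RNA level (vertical axis) of each member by role, for old over young female cells (upper panel) and young male over young female cells (lower panel); points are genes, black bars medians of a role, the grey band the middle 50% of all genes. All 8 lid members lie below 0 in the upper panel, and the constitutive catalytic subunits lie above 0 in the lower panel, where centring within deciles of half-life would put PSMB6 (−0.16) and PSMB7 (−0.12) below it.

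In old cells the largest single differences in synthesis rate (PSMB8 and PSME2) and in half-life (PSME2) were those of members with low synthesis rates. Next in half-life was PSMC2 (−0.42), and the largest level difference was that of PSMD5 (−0.57), neither of which had a low rate. PSME2 had a half-life of 28.3 h in young female and 17.3 h in old cells (log2 ratio −0.71), with synthesis rates of 34.5 and 57.0 (0.72) and a level ratio of 0.02. PSMB8, a subunit of the immunoproteasome, had half-lives of 13.4 and 17.5 h (0.38) and synthesis rates of 10.1 and 6.00 (−0.75). These are the lowest and highest synthesis ratios of any member in that comparison, and for half-life PSME2 had the lowest and PSMB8 the highest ratio. PSMB8, PSMB10, PSME1, PSME2 and PSMC3IP were the 5 members in the lowest 25% of genes by synthesis rate; among genes of that class 27.1% had an absolute log2 half-life ratio of at least 0.5, beside 8.76% of the others, and 41.1% such a synthesis ratio, beside 17.0%.

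The second comparison asked how male cells differed from female cells of young animals. Half-lives were longer in male cells for 40 of 43 members, with a median log2 ratio of 0.35 (1.27-fold), but 77.3% of all genes were longer, with a median of 0.27. Synthesis rates were lower for 35 of 43, with a median of −0.23, beside 71.1% of all genes and a median of −0.28. After centring on the median of all genes 28 of 43 members were longer in half-life and 23 higher in synthesis rate, and after centring within deciles of half-life 18 were longer and 17 higher. Implied levels had a median of 0.09, with 26 of 43 higher beside 50.5% of all genes. The members' half-life and synthesis counts are therefore to be read against a shift of all genes in the same direction.

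One member, PSMD10, was past the threshold for half-life (7.58% of all genes past it) and for synthesis rate (12.2%), and none for level (4.61%). PSMD10, also known as gankyrin, is a chaperone of base assembly. Its half-life was 2.69 h in young female and 6.25 h in young male cells (log2 ratio 1.22) and its synthesis rate 282.7 and 123.5 (−1.20). The implied level therefore had a ratio of 0.02. In old cells the same gene had a half-life of 3.01 h and a synthesis rate of 286.1, close to the age table's young female values of 2.69 h and 295.8. After centring on the median of all genes the ratios in male cells were 0.94 and −0.92, under the threshold. With a threshold of 0.5 there were 10 members past it for half-life (31.8% of all genes), 15 for synthesis rate (41.1%) and 3 for level (PSMB8, PSMB10 and PSMC3IP, beside 25%).

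Opposed differences of this kind were listed for most members. Between both estimates of the young female libraries, less their constant offset, PSME1 differed by 0.12 in half-life and −0.12 in synthesis rate. PSMG1 differed by 0.075 and −0.075, while its level differed by −0.00036 and that of PSME1 by less. These were the only 2 of 43 members that deviated by over 0.05 in half-life, beside 1755 of the 10974 genes in both tables. The part of estimation error in the opposed differences between groups was not tested. In the sex comparison 38 of 43 had half-life and synthesis ratios of opposite sign, beside 76.2% of all genes, and in the age comparison 28 of 43 beside 70.4%. PSMA6 had a half-life of 7.33 h in young female and 12.8 h in male cells and synthesis rates of 301.0 and 159.7, with a level ratio of −0.11. PSMB7 had 11.6 and 21.4 h and synthesis rates of 422.4 and 259.0, with a level ratio of 0.18. PSME4 had 2.95 and 4.56 h and synthesis rates of 1013 and 539.1, with a level ratio of −0.28, and PSMG1 had 7.43 and 12.4 h and synthesis rates of 139.9 and 90.7, with a level ratio of 0.11. For these 4 genes the level differed less than either parameter.

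**Figure D3:**
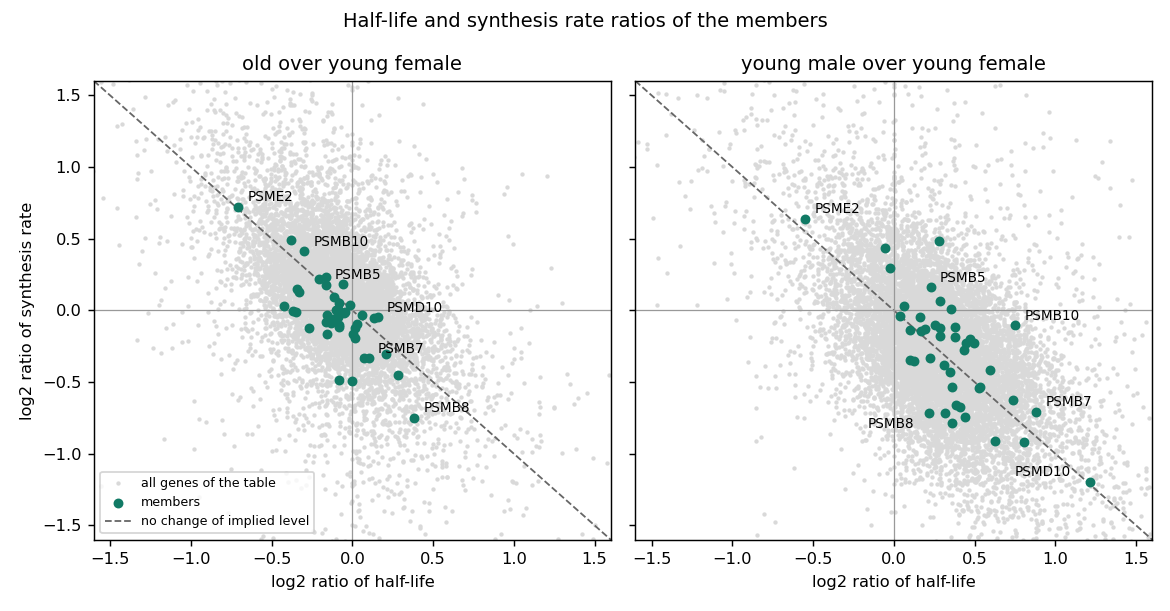
Log2 ratio of half-life (horizontal) against log2 ratio of synthesis rate (vertical) for the 43 members (green) over all genes of the table (grey, shown within 1.6 log2 units), for old over young female cells (left) and young male over young female cells (right). On the dashed diagonal the implied level does not differ; PSMD10 lies on it at 1.22 and −1.20 in the right panel and PSME2 lies near it in both.

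The level ratios of male cells differed between classes of half-life, for the members and for all genes. Members with a half-life of 12 h or more in old female cells, a group outside this ratio, had higher levels in male cells for 13 of 14, beside 89.6% of all genes of that class, with a median log2 ratio of 0.18 beside 0.38. Of 13 members of 6 to 12 h 7 were higher (75.8% of all genes), with a median of 0.00 beside 0.19. Of 16 under 6 h 6 were higher (33.9% of all genes), with a median of −0.06 beside −0.15. Long-lived core, base and lid genes with levels above 0 included PSMB5 (0.39), PSMD8 (0.37), PSMB6 (0.27), PSMD13 (0.27) and PSMD2 (0.22). Members under 6 h with levels below 0 included the lid subunits PSMD12 (−0.42) and PSMD6 (−0.27), the chaperone PSMD5 (−0.40) and the activator PSME4 (−0.28), and those above 0 included PSMC3IP (0.77) and PSMF1 (0.26). The exception among long-lived members was PSMB8, at −0.50. After centring within deciles of half-life the members' median level ratio was −0.12, with 11 of 43 above 0, against 0.09 and 26 without it.

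**Figure D4:**
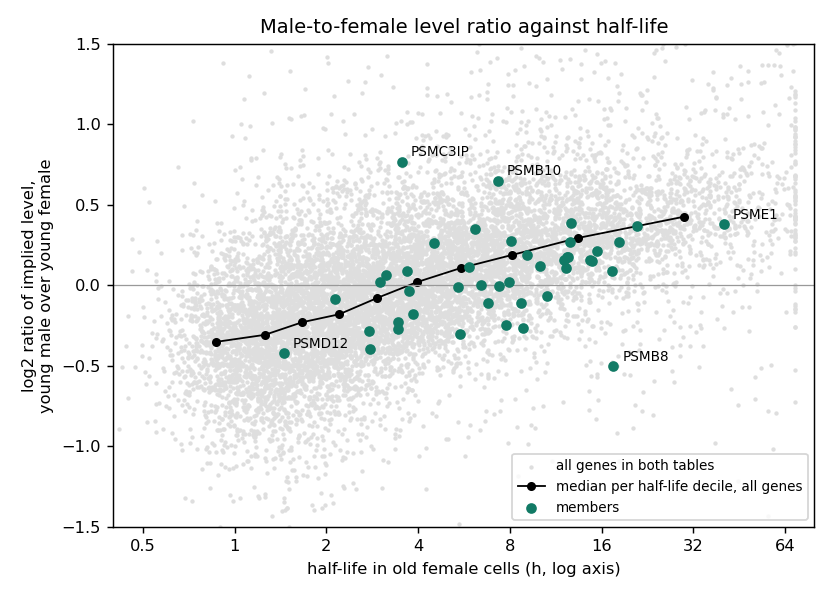
Log2 ratio of implied level of young male over young female cells (vertical) against the half-life in old female cells (hours, log axis) for the 43 members (green) and all genes in both tables (grey, shown within 1.5 log2 units); black points join the medians of all genes in 10 half-life classes of equal size. PSMD12 lies at −0.42 at the short end, PSME1 at 0.38 at the long end, and PSMB8 (−0.50) lies below the other long-lived members.

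By role, all 7 alpha subunits had longer half-lives and lower synthesis rates in male cells, with half-life ratios from 0.10 for PSMA3 to 0.81 for PSMA6, on both sides of the median of all genes (6 of 7 above it, and 4 of 7 longer after centring within deciles of half-life). Longer half-lives were listed for 77.3% and lower synthesis rates for 71.1% of all genes. Their level ratios ran from −0.30 for PSMA1 to 0.18 for PSMA2, and from −0.43 to −0.11, all below 0, within deciles. The 8 lid members were longer in half-life too, from 0.10 for PSMD3 to 0.53 for PSMD14; after centring on all genes 6 of 8 were longer, and within deciles of half-life 5 of 8. SEM1 was above this range, at 1.01. Their level ratios ran from −0.42 to 0.37. Base ATPases had half-life ratios from −0.02 for PSMC4 to 0.53 for PSMC2, and before centring PSMC4 was the only ATPase with a synthesis ratio above 0 (0.30), against 4 of 6 under either centring. The 3 members with shorter half-lives in male cells were PSMC4, PSME1 and PSME2. PSME1 had a half-life of 39.8 h in young female and 38.4 h in male cells and a synthesis ratio of 0.43, and PSME2 had 28.2 and 19.3 h and a synthesis ratio of 0.64. The young female values of the age table would place PSME1 at 36.8 h, below the male value, so its direction in half-life depends on the table. PSMC3IP, a recombination factor not classed as a proteasome gene, had the highest level ratio in male cells, 0.77. Its half-lives were 4.58 h in young female and 5.57 h in male cells, and its synthesis rates 32.4 and 45.4.

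The catalytic subunits were compared as constitutive and immunoproteasome forms. Both kinds were long-lived. In young female cells of the age table the constitutive subunits had half-lives of 14.3 h for PSMB5, the chymotrypsin-like site, 17.6 h for PSMB6, the caspase-like site, and 11.6 h for PSMB7, the trypsin-like site. PSMB8, which takes the place of PSMB5, had 13.4 h, and PSMB10, which takes the place of PSMB7, had 9.00 h. PSMB9, the substitute of PSMB6, was not listed. The ranges of the constitutive and the immunoproteasome forms thus overlapped in young female cells.

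In old cells the half-lives were 12.7 h for PSMB5, 18.3 h for PSMB6, 12.4 h for PSMB7, 17.5 h for PSMB8 and 7.32 h for PSMB10. In young male cells they were 16.7, 24.7 and 21.4 h for PSMB5, PSMB6 and PSMB7 and 15.5 and 15.1 h for PSMB8 and PSMB10, so that both immunoproteasome subunits lay below all 3 constitutive ones there. In old cells PSMB8 was longer-lived than PSMB5 and PSMB10 shorter-lived than PSMB7.

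The listed immunoproteasome subunits had level ratios of opposite sign in both comparisons, a difference that was not tested. For PSMB8 the synthesis rate was 10.1 in young female and 6.00 in old cells (log2 ratio −0.75), and 9.63 in young female and 5.85 in male cells (−0.72); its level ratios were −0.36 and −0.50. The half-life ratios of PSMB8 were 0.38 in old and 0.22 in male cells, and those of PSMB10 −0.30 and 0.75. After centring on all genes the male half-life ratios were −0.06 for PSMB8 and 0.48 for PSMB10. For PSMB10 the synthesis rate was 31.9 in young female and 42.4 in old cells (0.41), and 30.5 in young female and 28.4 in male cells (−0.10, or 0.18 after centring on all genes); its level ratios were 0.11 and 0.65. Both comparisons share the young female libraries, so their agreement for PSMB8 is no independent repeat. Among the constitutive forms PSMB5 had synthesis ratios of 0.18 and 0.16 by age and sex, PSMB6 −0.03 and −0.23 (the latter 0.051 after centring on all genes), and PSMB7 −0.33 and −0.71.

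Set against the subunit it replaces, PSMB8 had a level relative to PSMB5 that was 1.30-fold lower in old (log2 difference −0.38) and 1.86-fold lower in male (−0.89) than in young female cells. PSMB10 relative to PSMB7 was 1.27-fold higher in old (0.34) and 1.39-fold higher in male cells (0.47). Each exchange pair was thus within 2-fold in both comparisons, and the pairs had opposite directions. For PSMB8 against PSMB5 the log2 differences in synthesis rate were −0.93 by age and −0.88 by sex, and those in half-life 0.55 and −0.01. For PSMB10 against PSMB7 they were 0.74 and 0.60 in synthesis rate and −0.40 and −0.13 in half-life. PSMB8 and PSMB10 are in the lowest 25% of genes by synthesis rate, where 35.6% of all genes had an absolute level ratio of at least 0.5 in the sex comparison, beside 21.4% of the others. In the age comparison these shares were 28.2% and 11.3%.

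**Figure D5:**
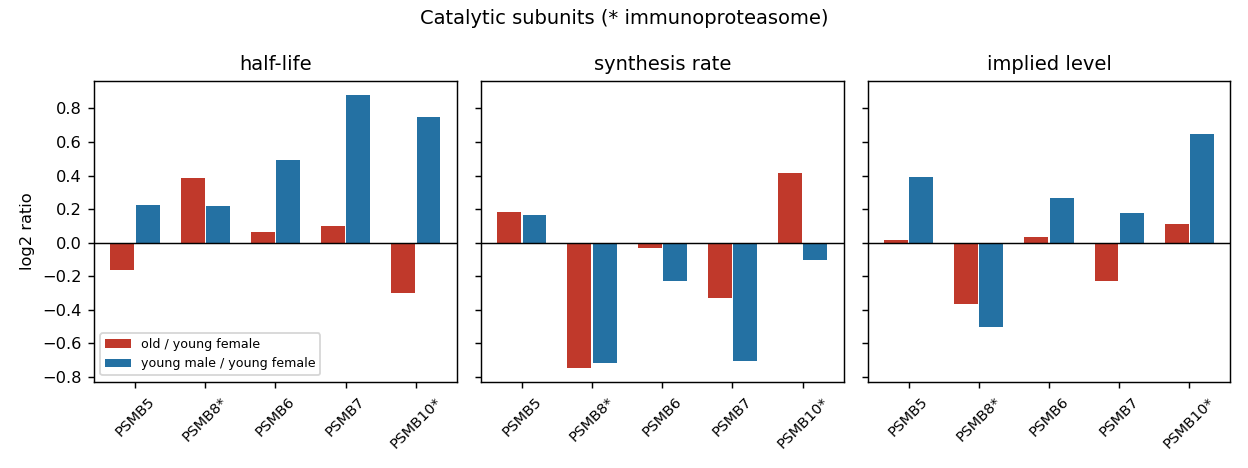
Log2 ratios (vertical axes) of half-life, synthesis rate and implied level for the 5 listed catalytic subunits, old over young female (red) and young male over young female (blue) cells; asterisks mark immunoproteasome subunits, and bars are single authors' estimates with no replicate error. PSMB8 is at −0.75 and −0.72 in synthesis rate, and PSMB10 is above 0 in implied level in both comparisons.

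Leukocytes carry much immunoproteasome, and of their 11 markers the 2 listed had a summed implied level that went from 3867 to 4668 between young female and old cells, and from 3693 to 4179 between young female and male cells of the sex table. CORO1A had a half-life of 7.08 h in young female, 3.84 h in old and 4.43 h in male cells, and synthesis ratios of 1.25 and 1.16. CD14, the other listed marker, had half-life ratios of 0.01 and 0.49 and synthesis ratios of 0.25 and −0.34. The part of these markers in the immunoproteasome and activator values was not tested.

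The other genes of the pathway were taken from fixed lists. Of 12 other proteasome genes, all listed, none was past the threshold in old cells and 1 was in male cells. This was SEM1, a small lid subunit, with a half-life of 14.6 h in young female and 29.4 h in male cells (log2 ratio 1.01); its male half-life is above 24 h and its level ratio was 0.36. In male cells 7.58% of all genes were past the threshold for half-life, and after centring on the median of all genes SEM1 was at 0.73, under it. POMP, which helps to mature the core, had 13.4 and 23.6 h, and UCHL5, a deubiquitinase of the regulatory particle, 10.5 and 17.4 h. The median level ratio of these 12 genes was 0.01 in old and −0.05 in male cells. The lowest in old cells was ZFAND2A (−0.60), a stress-induced ubiquitin-binding protein, and the highest ECPAS (0.31), a proteasome adaptor; in male cells the lowest was ZFAND5 (−0.48), an activator of the regulatory particle, and the highest SEM1.

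Among the regulators, NFE2L1, the transcription factor that raises proteasome gene expression when proteasome activity is low, had a half-life of 11.2 h in young female, 8.07 h in old and 13.8 h in male cells, and level ratios of −0.11 and 0.18. DDI2, the protease that activates it, had 1.11, 0.878 and 0.958 h, in old and male cells under 1 h, and level ratios of −0.28 and −0.68. VCP, the segregase that extracts ubiquitinated proteins, had a level ratio of −0.51 in old cells and one of 0.08 in male cells. None of the 5 regulators and none of the 5 listed ubiquitin shuttle factors (of 6) was past the threshold in either comparison. Of all genes 3.53% to 7.52% were past it by age and 4.61% to 12.2% by sex, depending on the quantity. For lists this short, having no gene past it is near those shares. Shuttle factors, which carry substrates to the proteasome, had a median level ratio of 0.04 in old cells and −0.14 in male cells. RAD23B was highest (0.21) and UBQLN1 lowest (−0.20) in old cells, UBQLN4 highest (0.17) and UBQLN1 lowest (−0.38) in male cells.

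Of 11 genes of MHC class I antigen processing, which use the peptides made by the proteasome, 10 were listed. None was past the threshold in old cells, where the median level ratio was −0.12, with PDIA3 highest (0.32) and TAP1 lowest (−0.49). In male cells CALR, a chaperone of class I assembly, was past it for half-life (31.0 h in young female and 63.5 h in male cells, both above 24 h), beside 7.58% of all genes; after centring on the median of all genes its ratio was 0.76, under the threshold. IRF1, an interferon-induced transcription factor that activates immunoproteasome genes, was past the threshold for half-life and for synthesis rate (12.2% of all genes past it). Its half-life was 1.87 h in young female and 0.0187 h in male cells, with a synthesis ratio of 5.69. The male half-life is far under 1 h, and the level ratio was −0.95. The median level ratio of the 10 genes in male cells was 0.00.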

How the data were processed

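RNA of 13 horse chondrocyte samples was sequenced after 4sU labelling for 4 h, alkylation with iodoacetamide for 15 min and poly(A) selection, per the labels' protocols. Per the submitters' processing notes, cutadapt 4.5, STAR 2.5.3 and the build EquCab3.0 were used; the kinetic model, gene filter and pooling of replicates are not given in the sources used here. The authors deposited 2 tables with synthesis rates and half-lives per gene and group, and 0 columns of values per sample. The column headed Young was read as young female, since the labels of those samples name that table.

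Log2 ratios were computed within each table in Python 3.11.15 with pandas 2.3.3, without pseudocount or filter, and checked on simulated data. No test was possible. Values are compared with all genes of the table. Alternatives were a threshold of 0.5, half-lives of 1 to 24 h, centring, genes in both tables, the upper 75% by synthesis rate, the other table's young female values (after removing the constant offset between tables) and omission of PSMC3IP and PSME3IP1; the implied level was added after the data were seen. Named genes were the catalytic subunits, members past the threshold, the extremes of each role and comparison, and pathway genes past the threshold or at the extremes of level; others were chosen after their values were seen. The members and gene lists were chosen with earlier results of these data known. All 43 symbols matched the RefSeq gene table (assembly TB-T2T), which is of another build and was used for names and gene order only.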

Additional observations from a re-analysis of the deposited data

How the results depend on the processing

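In the absence of replicates the limits for a change were 1.5 times for a count and 0.15 log2 units for medians and single genes. The latter is the 95th percentile of the deviation between both young female half-lives of genes of 1 to 24 h. It holds none of the variation from animals, labelling or sequencing. Of 99 alternative values of the main results 85 stayed within these limits and 14 moved, with 3 of the moved ones turning in sign. Of 297 for single named genes 260 stayed and 37 moved, with 12 of the moved ones and 2 of those that stayed turning in sign. Settings that only leave out genes cannot change the ratio of a gene that is kept. All members are in both tables, so the setting of genes in both tables could not change their medians and counts either. Values that stayed under such settings are therefore no sign that a result is robust. A threshold of 0.5 gave, in the order half-life, rate and level, 1, 2 and 1 members by age and 10, 15 and 3 by sex. Centring on the median of all genes took the sex medians of half-life and synthesis rate from 0.35 and −0.23 to 0.074 and 0.050. Both counts past the threshold went from 1 to 0. Centring within half-life deciles took these medians to −0.031 and −0.043, and the sex median of level from 0.09 to −0.12. There were then 0 members past the threshold for synthesis rate and 1 for half-life, PSME2 (−1.01) in place of PSMD10 (0.94). The level median by age ranged from −0.16 to −0.13 over its alternatives. No paired analysis was possible because the tables hold 1 value per group; leaving out replicates could not be run for the same reason. The depth of the libraries is unknown, so how far it limits the low-rate genes PSMB8, PSMB10, PSME1, PSME2 and PSMC3IP cannot be stated.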

Other observations

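PSME1 and PSME2, the subunits of the PA28 activator, are separated by 1 protein-coding gene in the RefSeq gene order of the horse (TB-T2T). In old cells the half-life ratios were 0.13 for PSME1 and −0.71 for PSME2 and the synthesis ratios −0.05 and 0.72; against young female cells as estimated in the sex table those of PSME1 were 0.016 and 0.066, the second with its sign turned. In male cells the half-life ratios were −0.05 and −0.55 and the synthesis ratios 0.43 and 0.64. The level ratios in old cells were 0.08 and 0.02.

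Level ratios of the members were less dispersed than those of all genes in both comparisons. The interquartile range was 0.22 log2 units wide for the members and 0.39 for all genes by age, and 0.31 and 0.58 by sex. Among all genes restricted to the upper 75% by synthesis rate and to half-lives of 1 to 24 h, the widths were 0.34 and 0.49. The difference in width was not tested.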
